A study of Mus musculus with 6 samples.

Results

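The transcription factors that specify, maintain and differentiate skeletal muscle cells were followed here as 9 genes: Pax7 and Pax3, the myogenic regulatory factors (MRFs) Myf5, Myod1, Myog and Myf6, and the MEF2 genes Mef2a, Mef2c and Mef2d. The members were chosen by symbol, and all 9 were among the 21671 genes of the deposited expression table. Of these, 8 exceeded 0.25 RPKM (read counts scaled for transcript length and library size) in at least 1 library and were tested with 13934 genes in all. Pax3 stayed below that level in every library and was not tested.

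The study used RNA-Seq to ask how muscle stem cells change when macrophages are removed from dystrophic muscle. Each mouse was mdxITGAM-DTR, that is, an mdx mouse without dystrophin that also carried the diphtheria toxin (DT) receptor under the ITGAM (CD11b) promoter, so that DT removes monocytes and macrophages. Male and female mice of 10 to 12 weeks received intramuscular injections every 4 days and were sacrificed 15 days after the first one, and cells were sorted from the Gastrocnemius. There were 3 groups of 2 libraries, each library from a pool of 2 mice: α7Sca1 cells (lineage negative, α7-integrin positive, Sca1 positive) from DT-injected mice, satellite cells (SCs, lineage negative, Sca1 negative, α7-integrin positive) from DT-injected mice (SCs DT), and SCs from mice injected with PBS vehicle (SCs CTRL). All groups carried the transgene and the mdx allele, and no α7Sca1 library from PBS-injected mice was analysed here. For that reason α7Sca1 cells set against SCs CTRL differ in both the gate and the treatment, which cannot be told apart.

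Pax7 and its relative Pax3 are paired-box factors that mark muscle progenitors, Pax7 being the defining factor of adult SCs. Activated SCs express Myf5 and Myod1, basic helix-loop-helix (bHLH) factors that bind E boxes as partners of E proteins, and then Myog, which drives differentiation and fusion. Myf6 (also MRF4) is best known from differentiated fibres. MEF2 proteins are MADS-box factors that bind AT-rich sites beside E boxes and act together with the MRFs on genes of the contractile apparatus.

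The genes lie on 6 chromosomes. On NCBIM37 (mm9), GENCODE places Pax7 at chr4:139292977-139389445 (minus strand), Pax3 at chr1:78097842-78193709 (minus), Myf5 at chr10:106919964-106923190 (minus), Myod1 at chr7:53631844-53634462 (plus) and Myog at chr1:136186581-136189124 (plus). Myf6 lies at chr10:106929916-106931785 (minus), Mef2a at chr7:74376049-74517744 (minus), Mef2c at chr13:83643033-83806684 (plus) and Mef2d at chr3:87946294-87976008 (plus). All 9 are protein coding. Mef2d overlaps 1 other annotated gene, the antisense lincRNA 1700113A16Rik, so that its reads cannot be told apart from that gene without strand, and the other 8 overlap none. Myf5 and Myf6 are neighbours on the same strand, 6725 bases apart with no protein-coding gene between them.

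The 250 bases before the transcription start are shown for Myog, the most abundant member, for Myf5, an MRF that was also far lower in α7Sca1 cells and whose window held no match to any motif searched, and for the first start of Mef2c, a partner of Myog. Capitals mark matches on either strand to the general E box CANNTG, to the core of the MEF2 site (TA, then 4 bases that are each A or T, then TA) and to TCAGGTT, the start of the MEF3 element of muscle gene promoters. The sequences are from RefSeq (GRCm38.p6 table), and each matched NCBIM37 exactly at the position given.
Myog (chr1:136186331-136186580, plus strand): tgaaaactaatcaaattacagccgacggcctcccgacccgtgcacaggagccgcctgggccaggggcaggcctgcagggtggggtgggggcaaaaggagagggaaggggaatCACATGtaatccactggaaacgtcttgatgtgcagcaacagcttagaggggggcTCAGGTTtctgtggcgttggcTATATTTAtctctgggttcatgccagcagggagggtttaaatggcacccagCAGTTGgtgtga
Myf5 (chr10:106923191-106923440, minus strand): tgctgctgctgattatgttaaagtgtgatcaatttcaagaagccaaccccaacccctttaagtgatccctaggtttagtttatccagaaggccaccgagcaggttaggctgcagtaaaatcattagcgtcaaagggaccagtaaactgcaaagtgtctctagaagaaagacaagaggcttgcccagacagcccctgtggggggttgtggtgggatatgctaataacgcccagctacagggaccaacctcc
Mef2c, first start (chr13:83642783-83643032, plus strand): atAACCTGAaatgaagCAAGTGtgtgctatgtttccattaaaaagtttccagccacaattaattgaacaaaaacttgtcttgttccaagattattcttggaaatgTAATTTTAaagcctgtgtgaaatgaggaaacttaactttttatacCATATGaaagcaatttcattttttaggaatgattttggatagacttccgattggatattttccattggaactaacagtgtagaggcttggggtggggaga

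In the Myog window, E boxes began 138 and 12 bases before the start, the MEF2 core 63 bases and TCAGGTT 84 bases before it. In the first Mef2c window, E boxes began at 234 and 100 bases, the MEF2 core at 145 and TCAGGTT, in reverse, at 248 bases before the start. The table held 8 starts for 6 members (Pax7, Myf5, Myog, Mef2a, Mef2c and Mef2d), with 3 of them for Mef2c. The only other match was 1 general E box in the third Mef2c window, 245 bases before its start. Of all 32851 windows of this length, 66.2% held CANNTG, 8.6% the MEF2 core and 3.5% TCAGGTT. The E boxes CAGCTG and CAGGTG, held by 13.0% and 17.2% of all windows, were found in none of the 8. These are matches of letters only. Pax3, Myod1 and Myf6 are named without a sequence.

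Before the results, the libraries were checked. Sorted values were the same in all 6 libraries to within 0.0192 RPKM, so the deposited RPKM had been brought to 1 distribution and the depth of each library is unknown. The gates were seen in the values: Itga7, which encodes α7-integrin, was at 41.8 and 48.5 RPKM in α7Sca1 cells, 78.3 and 77.6 in SCs DT and 75.03 and 77.57 in SCs CTRL, and Ly6a, which encodes Sca1, at 344 and 248 RPKM in α7Sca1 cells, 51.8 and 55.2 RPKM in SCs DT and 31.0 and 21.6 RPKM in SCs CTRL. α7Sca1 cells also carried a strong fat cell programme, with the 10 adipocyte markers summing to 11399 and 11385 RPKM, against 231 and 642 RPKM in SCs DT and 104 and 76.4 RPKM in SCs CTRL. Cfd weighed on these sums, at 7389 RPKM in both α7Sca1 libraries, the highest value of any gene. It was at 72.0 and 379 RPKM in SCs DT and 4.04 and 4.13 RPKM in SCs CTRL. In SCs CTRL the largest was Fabp4, at 90.8 and 66.9 RPKM. Lep was listed at 0 in all 4 SC libraries and Plin1 at 0 in SCs CTRL replicate 2. The 9 satellite cell markers summed to 319 and 424 RPKM in α7Sca1 cells, 539 and 579 RPKM in SCs DT, and 686 and 679 RPKM in SCs CTRL, with none at 0, and 8 of the 9 passed as lower in α7Sca1 cells against SCs DT (5 without either SCs DT replicate). Of all genes tested, 15.6% were called lower and 14.6% higher in that comparison. Sdc4, the largest of the 9, weighed on the satellite cell marker sums. It was at 215 and 344 RPKM in α7Sca1 cells, 261 and 316 in SCs DT, and 330.5 and 337.5 in SCs CTRL. Replicate 1 of SCs CTRL stood apart from replicate 2: its 8 FAP (fibro-adipogenic progenitor) and fibroblast markers summed to 3139 RPKM against 471 RPKM, and its 10 macrophage markers to 1066 RPKM against 558 RPKM, with none of these at 0. Much of the first sum was Col1a1, at 2287 RPKM against 192.5 RPKM, while Dpt was at 67.6 RPKM against 56.8 RPKM. The FAP and fibroblast sums were 1355 and 870 RPKM in α7Sca1 cells and 343 and 463 RPKM in SCs DT.

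Every tested factor was lower in the α7Sca1 libraries than in the SCs DT libraries. In α7Sca1 cells 7 of the 8 tested factors passed the test as lower than in SCs DT and none as higher (limma on log2(RPKM + 1) over all genes, adjusted p under 0.05). Of all genes tested, 15.6% were called lower and 14.6% higher in that comparison. The median log2 fold change was -1.63 over the 8 factors and -0.04 over all genes tested. Libraries of the 2 groups did not overlap for any of the 8, all of them lying below, where 36.4% of all genes lay below and 30.8% above without overlap. The 10 adipocyte markers were all called higher in the same comparison, Lep and Plin1 having passed the filter only through α7Sca1 cells. All 12 tested myofibre markers fell. The part of these markers in the differences of the factors was not tested. In bulk samples, fewer cells of a type and less RNA per cell cannot be told apart. Fold changes on the log2(RPKM + 1) scale understate the change of genes with low values, so the ratio of means is given as well.

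**Figure D1:**
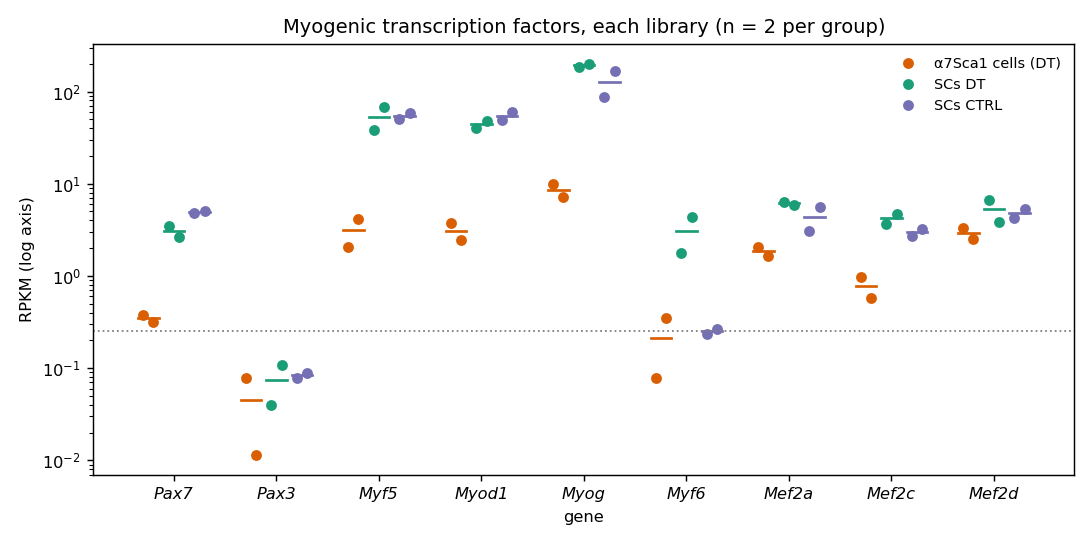
RPKM of the 9 factors on a log axis in each library (points; n = 2 per group) with the group mean (bar), for α7Sca1 cells, SCs DT and SCs CTRL; the dotted line is the level of 0.25 RPKM that a gene had to exceed in 1 library to be tested. Myog was the highest in every group, at 8.62 RPKM on average in α7Sca1 cells, 193 in SCs DT and 126 in SCs CTRL, and Pax3 stayed below the line in every library.

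Pax7 was at 0.380 and 0.319 RPKM in the α7Sca1 libraries, 3.45 and 2.67 RPKM in SCs DT, and 4.87 and 5.01 RPKM in SCs CTRL. The 3 groups did not overlap. Pax7 fell in α7Sca1 cells to 11.4% of the mean in SCs DT, with 9.24% to 14.2% over the 4 pairs of libraries (log2 fold change -1.58 ± 0.18 (SE), adjusted p = 0.000887, limma). Against SCs CTRL the α7Sca1 level was 7.07% (log2 fold change -2.14 ± 0.18, adjusted p = 0.000251, limma). SCs DT held 62.0% of the Pax7 level of SCs CTRL, which did not pass (log2 fold change -0.55, 95% interval -0.97 to -0.14, unadjusted p = 0.0152 and adjusted p = 0.317, limma). Between 18.8% and 27.7% of all genes had a higher RPKM than Pax7 in the SC libraries, and 53.1% and 54.7% in the α7Sca1 libraries.

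Pax3 was listed at 0.0787 and 0.0114 RPKM in α7Sca1 cells, 0.0399 and 0.108 RPKM in SCs DT and 0.0785 and 0.0894 RPKM in SCs CTRL. The ranges of all 3 groups overlapped, and 63.4% to 78.3% of all genes were higher than Pax3 in a library.

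Myf5 was at 2.08 and 4.17 RPKM in α7Sca1 cells, 38.4 and 67.6 RPKM in SCs DT, and 50.5 and 58.0 RPKM in SCs CTRL. Libraries of α7Sca1 cells lay well below all SC libraries, and the SC groups overlapped. Myf5 fell to 5.89% of the SCs DT mean in α7Sca1 cells (3.08% to 10.8% over library pairs), with a log2 fold change of -3.70 ± 0.35 (adjusted p = 0.00046, limma). Against SCs CTRL it was at 5.76% (log2 fold change -3.79 ± 0.35, adjusted p = 0.000409, limma). Between SCs DT and SCs CTRL the means were 53.0 ± 20.6 and 54.2 ± 5.32 RPKM (SD, n = 2 each), with an interval of the log2 difference of -0.90 to 0.74 that leaves changes of either sign possible.

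Myod1 was at 3.72 and 2.44 RPKM in α7Sca1 cells, 40.4 and 47.7 RPKM in SCs DT, and 49.5 and 59.8 RPKM in SCs CTRL. α7Sca1 cells were again far below, and SCs DT lay below SCs CTRL without overlap but by little. Myod1 fell to 6.99% of the SCs DT mean (log2 fold change -3.48 ± 0.25, adjusted p = 0.000197, limma) and was at 5.64% of the SCs CTRL mean (log2 fold change -3.78 ± 0.25, adjusted p = 0.000122, limma). SCs DT were at 80.6% of SCs CTRL, which did not pass (log2 fold change -0.30 ± 0.25, adjusted p = 0.771, limma).

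Myog, whose protein switches on terminal differentiation, was at 10.01 and 7.22 RPKM in α7Sca1 cells, 185 and 201 RPKM in SCs DT, and 86.9 and 166 RPKM in SCs CTRL. It ranked 173 and 157 among all genes of the SCs DT libraries, 369 and 196 in SCs CTRL, and 2490 and 3169 in α7Sca1 cells. The fall to 4.46% of the SCs DT mean (3.59% to 5.41% over library pairs) was the largest among the 8 factors by fold change, at -4.35 ± 0.34 on the log2 scale (adjusted p = 0.000252, limma). Against SCs CTRL the α7Sca1 level was 6.82% (log2 fold change -3.67 ± 0.34, adjusted p = 0.000413, limma). SCs DT lay above SCs CTRL, at a ratio of means of 1.53, without passing (log2 fold change 0.68, interval -0.12 to 1.48, adjusted p = 0.573, limma). That difference depends on the SCs CTRL library it is set against: the log2 fold change was 0.22 without SCs CTRL replicate 1 and 1.14 without SCs CTRL replicate 2.

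Myf6 was at 0.0781 and 0.348 RPKM in α7Sca1 cells, 1.78 and 4.32 RPKM in SCs DT, and 0.237 and 0.269 RPKM in SCs CTRL. It stood out among the MRFs in being low in SCs CTRL as well, so that α7Sca1 cells and SCs CTRL overlapped and only SCs DT were high. Myf6 fell in α7Sca1 cells to 6.99% of the SCs DT mean, with a wide 1.81% to 19.5% over library pairs (log2 fold change -1.67 ± 0.29, adjusted p = 0.00534, limma). Against SCs CTRL the log2 fold change was -0.06 (interval -0.73 to 0.62, adjusted p = 0.90, limma).

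SCs DT were 12.1 times SCs CTRL by the Myf6 means, with 663% to 1820% of the SCs CTRL level over library pairs and 1.62 ± 0.29 on the log2 scale (interval 0.95 to 2.29, unadjusted p = 0.000682, adjusted p = 0.0826, limma), which did not pass over all genes. The log2 fold change was 2.09 without SCs DT replicate 1 and 1.15 without SCs DT replicate 2. With all libraries kept, the adjusted p ranged between 0.0319 and 0.248 over the alternative settings (limma). The 0.0319 came from a fit with a term for replicate number, though same-numbered libraries were not taken as pairs. The next lowest was 0.067, with 0.5 RPKM added in place of 1 (limma). The 13 myofibre markers resembled Myf6 only in part, their sum being highest in SCs DT. α7Sca1 cells and SCs CTRL overlapped in Myf6, and 17.3% of all genes were called lower in α7Sca1 cells there. In that comparison limma called a fall in 11 of the 12 markers tested. Their sum was 44.7 and 41.6 RPKM in α7Sca1 cells, 1483 and 2219 RPKM in SCs DT, and 218 and 430 RPKM in SCs CTRL, none of them at 0 in a library. In SCs DT against SCs CTRL, 8 of the 12 myofibre markers tested were called higher and none lower, beside 0.352% and 0.0933% of all genes. That count was 0 without SCs CTRL replicate 1 or SCs DT replicate 2, and 2 without SCs DT replicate 1 or either α7Sca1 replicate. The part of the markers in the Myf6 difference was not tested.

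**Figure D2:**
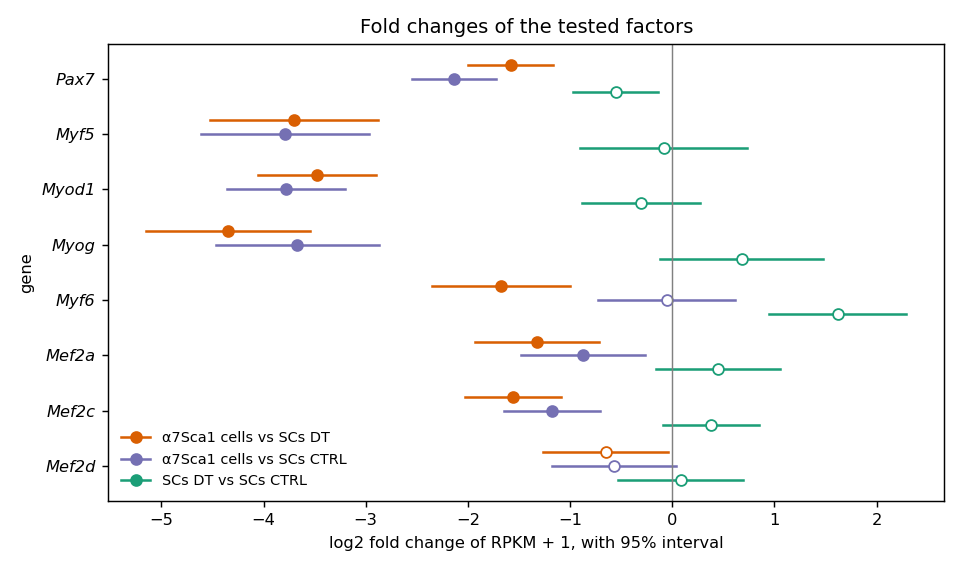
Log2 fold change of RPKM + 1 (point) with its 95% interval (line) from limma for the 8 tested factors, in α7Sca1 cells against SCs DT, α7Sca1 cells against SCs CTRL, and SCs DT against SCs CTRL; filled points have an adjusted p under 0.05. Pax7, Myf5, Myod1 and Myog were lower in both α7Sca1 comparisons, Myf6 only against SCs DT, and no point of SCs DT against SCs CTRL is filled.

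Of the MEF2 genes, Mef2a and Mef2c passed in both α7Sca1 comparisons and Mef2d in neither. Their α7Sca1 means were 18.3% to 55.2% of the SCs DT means. Mef2a, expressed in most tissues, was at 2.06 and 1.64 RPKM in α7Sca1 cells, 6.38 and 5.83 RPKM in SCs DT, and 3.08 and 5.66 RPKM in SCs CTRL. Its α7Sca1 level was 30.3% of that of SCs DT (log2 fold change -1.32 ± 0.26, adjusted p = 0.00885, limma) and 42.3% of that of SCs CTRL (log2 fold change -0.88 ± 0.26, adjusted p = 0.0376, limma). Neither call was stable to the libraries used. The first was lost without SCs DT replicate 1 (adjusted p = 0.067, limma) or replicate 2 (adjusted p = 0.0537). The second passed only without SCs CTRL replicate 1 when a library was left out, and its adjusted p was 0.212 without SCs CTRL replicate 2, 0.0696 without SCs DT replicate 1, 0.076 without SCs DT replicate 2, 0.0643 without α7Sca1 replicate 1 and 0.126 without α7Sca1 replicate 2 (limma).

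Mef2c, the MEF2 gene most closely tied to muscle differentiation, was at 0.964 and 0.572 RPKM in α7Sca1 cells, 3.69 and 4.70 RPKM in SCs DT, and 2.73 and 3.22 RPKM in SCs CTRL. The 3 groups did not overlap. It fell to 18.3% of the SCs DT mean (log2 fold change -1.56 ± 0.20, adjusted p = 0.00158, limma) and was at 25.8% of the SCs CTRL mean (log2 fold change -1.17 ± 0.20, adjusted p = 0.00485, limma), a call that was lost without SCs CTRL replicate 2 (adjusted p = 0.0519).

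Mef2d, another MEF2 gene of broad expression, was at 3.29 and 2.52 RPKM in α7Sca1 cells, 6.64 and 3.87 RPKM in SCs DT, and 4.28 and 5.29 RPKM in SCs CTRL. α7Sca1 cells lay below both SC groups without overlap, at 55.2% of SCs DT (log2 fold change -0.65, interval -1.26 to -0.04, adjusted p = 0.099, limma) and 60.7% of SCs CTRL (log2 fold change -0.57, interval -1.18 to 0.04, adjusted p = 0.135, limma). Neither passed. In SCs DT against SCs CTRL, no MEF2 gene passed (Mef2a 0.45, Mef2c 0.38 and Mef2d 0.08 on the log2 scale, with adjusted p = 0.637, 0.588 and 0.983, limma). The Mef2a value was 0.09 without SCs CTRL replicate 1 and 0.80 without SCs CTRL replicate 2.

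Against SCs CTRL, 6 of the 8 tested factors were called lower in α7Sca1 cells and none higher, beside 17.3% of all genes lower and 15.1% higher, and the count was 6 without SCs CTRL replicate 1, 4 without SCs CTRL replicate 2 and 5 without each of the other 4 libraries. The ranges lay below without overlap for 7 of the 8, beside 38.1% of all genes below and 30.0% above. Both α7Sca1 comparisons use the same α7Sca1 libraries. In SCs DT against SCs CTRL, limma called 0 of the 8 at an adjusted p under 0.05, with 2 (Pax7 and Myf6) at an unadjusted p under 0.05, beside 10.4% of all genes tested. Of all genes, 0.352% were called higher and 0.0933% lower there. By ranges alone 4 factors (Myog, Myf6, Mef2a and Mef2c) lay above without overlap in SCs DT and 2 (Pax7 and Myod1) below, where 21.6% of all genes lay above and 25.1% below. The median log2 fold change of the 8 was 0.23, and -0.01 over all genes tested.

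RPKM is set per length, so levels can be ordered within a group. In α7Sca1 cells the means ran Myog (8.62 RPKM), Myf5 (3.12), Myod1 (3.08), Mef2d (2.90), Mef2a (1.85), Mef2c (0.768), Pax7 (0.349), Myf6 (0.213) and Pax3 (0.0450). Among neighbours in that order, Myf5 with Myod1, Myod1 with Mef2d, Pax7 with Myf6 and Myf6 with Pax3 overlapped. In SCs DT the order was Myog (193 RPKM), Myf5 (53.0), Myod1 (44.1), Mef2a (6.11), Mef2d (5.26), Mef2c (4.198), Pax7 (3.06), Myf6 (3.05) and Pax3 (0.0738). Here Myf5 with Myod1, Mef2a with Mef2d, Mef2d with Mef2c and Pax7 with Myf6 overlapped. In SCs CTRL Myog (126 RPKM) was followed by Myod1 (54.7), Myf5 (54.2), Pax7 (4.94), Mef2d (4.79), Mef2a (4.37), Mef2c (2.97), Myf6 (0.253) and Pax3 (0.0839). Myod1 with Myf5 overlapped there, as did Pax7 with Mef2d, Mef2d with Mef2a and Mef2a with Mef2c. Myog therefore headed all 3 groups without overlap with the next gene, and Myf5 and Myod1 could not be ordered in any of them.

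The make-up of each family was compared within libraries, where 1 scale factor per library would cancel. The deposited RPKM had been brought to 1 distribution, which need not be 1 factor per library and may not cancel in shares or ratios. The summed RPKM of the 4 MRFs was 15.9 and 14.2 in α7Sca1 cells, 266 and 321 in SCs DT, and 187 and 284 in SCs CTRL. Within that sum Myog took 57.0% ± 8.53 in α7Sca1 cells, 66.2% ± 4.94 in SCs DT and 52.4% ± 8.43 in SCs CTRL (SD, n = 2 each). Myf5 took 21.2% ± 11.5 in α7Sca1 cells, 17.8% ± 4.68 in SCs DT and 23.7% ± 4.62 in SCs CTRL. Myod1 took 20.3% ± 4.39 in α7Sca1 cells, 15% ± 0.218 in SCs DT and 23.8% ± 3.79 in SCs CTRL. While the sum differed widely, the composition of the MRFs in α7Sca1 cells overlapped that of SCs in Myf5 and Myog. Myf6 took 0.492% and 2.46% in α7Sca1 cells, 0.672% and 1.35% in SCs DT, and 0.126% and 0.0948% in SCs CTRL.

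**Figure D3:**
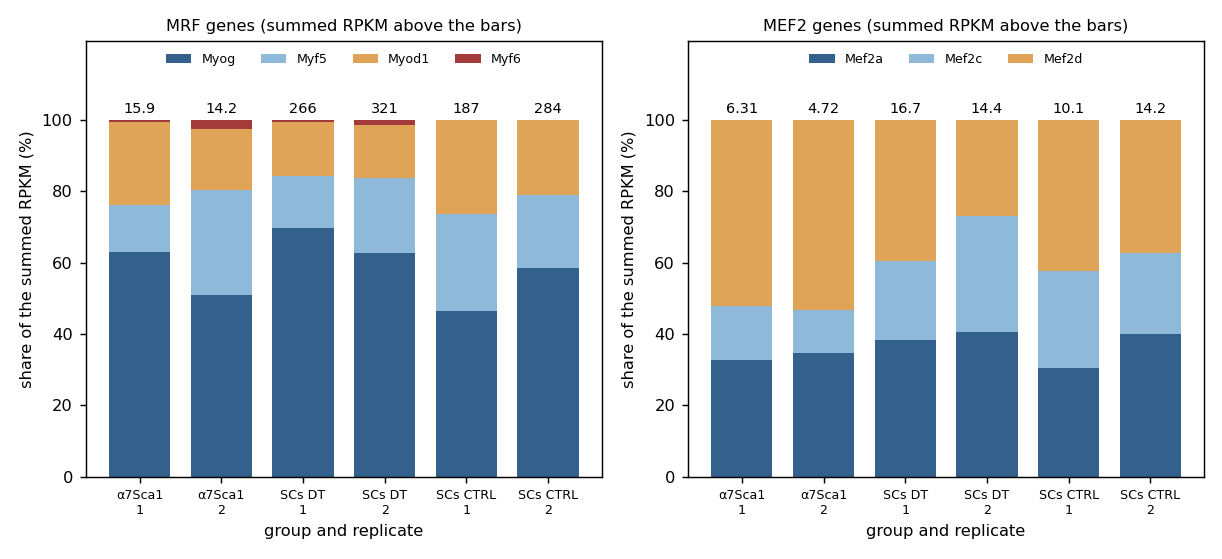
Share in percent of the summed RPKM of the 4 MRFs (left) and the 3 MEF2 genes (right) taken by each gene in each library, with the summed RPKM printed above each bar. Myog is the largest MRF share in every library, between 46.5% and 69.7%, and Mef2d takes 52.1% and 53.3% of the MEF2 sum in α7Sca1 cells, above each SC library.

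The MEF2 sum was 6.31 and 4.72 RPKM in α7Sca1 cells, 16.7 and 14.4 RPKM in SCs DT, and 10.1 and 14.2 RPKM in SCs CTRL. Mef2d took 52.7% ± 0.829 of it in α7Sca1 cells, 33.3% ± 9.06 in SCs DT and 39.9% ± 3.62 in SCs CTRL (SD, n = 2 each), and Mef2c took 13.7% ± 2.24 in α7Sca1 cells, 27.4% ± 7.44 in SCs DT and 24.9% ± 3.06 in SCs CTRL. The α7Sca1 libraries did not overlap the SC libraries in either share. The Mef2a shares were 32.6% and 34.6% in α7Sca1 cells, below the 38.2% and 40.5% of SCs DT without overlap, and overlapped those of SCs CTRL (30.5% and 39.9%).

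The 5 ratios between pairs of factors were compared as log2((RPKM + 1) / (RPKM + 1)) within each library. The Myog to Pax7 ratio, which sets the differentiation factor against the stem cell factor, was 2.997 and 2.64 on that log2 scale in α7Sca1 cells, 5.39 and 5.78 in SCs DT, and 3.90 and 4.79 in SCs CTRL. SCs DT lay above SCs CTRL in it by 1.23 without overlap, and above α7Sca1 cells without overlap. With Pax7 below 0.4 RPKM in α7Sca1 cells, the added 1 RPKM weighs on their values: as plain RPKM ratios, Myog to Pax7 was 26.4 and 22.6 in α7Sca1 cells, 53.6 and 75.3 in SCs DT, and 17.9 and 33.1 in SCs CTRL, so that SCs DT stayed above both and α7Sca1 cells overlapped SCs CTRL. The Myog to Myf5 ratio was also higher in SCs DT than in SCs CTRL, at 2.24 and 1.56 in SCs DT against 0.77 and 1.498 in SCs CTRL. Replicate 2 of both groups lay close, at plain ratios of 2.97 in SCs DT and 2.86 in SCs CTRL. SCs CTRL replicate 1 was the lowest of them, at 1.72. The Myod1 to Pax7 ratio overlapped between those groups (3.22 and 3.73 in SCs DT, 3.11 and 3.34 in SCs CTRL). The Myf6 to Myog ratio was -3.35 and -2.61 in α7Sca1 cells, -6.06 and -5.25 in SCs DT, and -6.15 and -7.04 in SCs CTRL. The added 1 RPKM weighs on this ratio, since Myf6 was below 1 RPKM in both α7Sca1 cells and SCs CTRL. As plain RPKM ratios it was 0.0078 and 0.0483 in α7Sca1 cells, which overlapped the 0.00964 and 0.0215 of SCs DT and lay above the 0.00272 and 0.00162 of SCs CTRL. The Mef2c to Mef2a ratio overlapped in all 3 comparisons. Exact two-sided permutation tests of 2 libraries against 2 cannot give a p below 0.333, and none of the 15 comparisons could pass.

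Over the 6 libraries, the genes whose log2(RPKM + 1) was most like that of a factor were picked from the 5617 or 5618 other genes with at least 5 RPKM in a library. For Myog these were Rbm24 (Pearson r = 0.999), which encodes an RNA-binding protein of muscle, Aif1l (0.999) and Murc (0.998), whose product is a coiled-coil protein of muscle caveolae. For Mef2c they were Actn3 (0.997), the α-actinin of fast fibres, Sgca (0.996), which encodes α-sarcoglycan, and Jam3 (0.995). For Myod1 they were Arpc4 (0.999), Popdc2 (0.999), a membrane protein gene of striated muscle, and Ppp1r8 (0.999), for Myf5 Hdgf (0.998), 1110059E24Rik (0.998) and Ezr (0.997), and for Pax7 Pgam1 (0.997), Nradd (0.997) and Tipin (0.996). Myf6 was most like Myl2 (0.986), the regulatory light chain of slow fibres and heart, Smpx (0.980) and Zfp346 (0.978). Mef2a was most like Ndufb6 (0.994), 2310036O22Rik (0.991) and Chd4 (0.990), and Mef2d like Cand1 (0.996), Rala (0.990) and Mettl9 (0.987). With 6 libraries in 3 groups, such values mainly record how the groups differ, and they are given as a description.

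Rbm24 was at 0.341 ± 0.0472 RPKM in α7Sca1 cells, 6.45 ± 0.0933 in SCs DT and 4.63 ± 1.38 in SCs CTRL (SD, n = 2 each), the order of groups seen for Myog. Myl2 was listed at 0 and at 0.0624 RPKM in α7Sca1 cells, 2.79 and 6.02 RPKM in SCs DT, and 0.0552 and 0.380 RPKM in SCs CTRL, low in 2 groups as Myf6 was. Among the factors themselves, Myog correlated with Mef2c at r = 0.986 and with Myod1 at 0.972, and Myf6 with Pax7 at 0.245. The genomic neighbours Myf5 and Myf6 had r = 0.525. The next protein-coding gene at lower coordinates, Lin7a, was at 0.643 and 0.823 RPKM in α7Sca1 cells, 1.44 and 2.11 RPKM in SCs DT, and 2.17 and 1.79 RPKM in SCs CTRL. The next at higher coordinates, Ptprq, stayed between 0.0393 and 0.202 RPKM in all libraries.

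The partners and regulators of these factors were followed through lists of genes. Their counts are to be read beside the shares of all genes tested. In α7Sca1 cells, 15.6% were called lower and 14.6% higher against SCs DT, and 17.3% and 15.1% against SCs CTRL. In SCs DT against SCs CTRL, 10.4% of all genes had an unadjusted p under 0.05 (limma). Of the 3 E proteins, the bHLH partners of the MRFs, 2 fell in α7Sca1 cells against SCs DT and none rose. Tcf3 (E2A) was at 1.003 and 0.583 RPKM in α7Sca1 cells against 3.23 and 1.98 RPKM in SCs DT (log2 fold change -0.997 ± 0.22, adjusted p = 0.0152, limma). Tcf12 (HEB) was at 2.01 and 1.55 RPKM in α7Sca1 cells against 4.65 and 4.26 RPKM in SCs DT (log2 fold change -0.98 ± 0.19, adjusted p = 0.0089, limma). Tcf4, the most abundant E protein, was at 9.22 and 5.64 RPKM in α7Sca1 cells and 7.76 and 10.3 RPKM in SCs DT, which overlap (adjusted p = 0.482). The count of 2 became 0 without SCs DT replicate 1, and 1 without SCs DT replicate 2 or α7Sca1 replicate 2. Between SCs DT and SCs CTRL limma called 0 of the 3, with 0 at an unadjusted p under 0.05, and Tcf4 and Tcf12 had log2 fold changes of -0.44 and 0.07. Against SCs CTRL, 2 of the 3 were called lower in α7Sca1 cells, with 1 without SCs CTRL replicate 1, 0 without SCs CTRL replicate 2 and 3 without α7Sca1 replicate 1.

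Of 13 inhibitors of the bHLH factors, 4 fell and 2 were called higher in α7Sca1 cells against SCs DT, beside 15.6% and 14.6% of all genes. Msc (MyoR), a bHLH repressor of muscle genes, was at 4.15 and 1.52 RPKM in α7Sca1 cells against 23.7 and 11.2 RPKM in SCs DT (log2 fold change -2.27 ± 0.42, adjusted p = 0.00722, limma). Id2, which binds E proteins without contacting DNA, was at 17.4 and 25.1 RPKM in α7Sca1 cells against 57.6 and 71.7 RPKM in SCs DT (log2 fold change -1.57 ± 0.27, adjusted p = 0.00508, limma). Snai2, a zinc-finger repressor that binds E boxes, was at 6.22 and 3.77 RPKM in α7Sca1 cells against 13.5 and 14.2 RPKM in SCs DT (log2 fold change -1.34 ± 0.24, adjusted p = 0.0068, limma). The other calls, named after their values were seen, were Id1 (lower) and Twist1 and Twist2 (higher), bHLH repressors that are typical of mesenchymal cells, with Twist2 at 2.31 and 1.14 RPKM in α7Sca1 cells against 0.142 and 0.244 RPKM in SCs DT. Twist2 passed the filter only through α7Sca1 cells. Id3, the most abundant of the list, was at 309 and 464 RPKM in α7Sca1 cells and 362 and 399 RPKM in SCs DT, which overlap. Without SCs DT replicate 1 the counts were 1 lower and 0 higher, without SCs DT replicate 2 they were 2 and 1, and without α7Sca1 replicate 2 only 1 rose. Of the 13, limma called 0 in SCs DT against SCs CTRL, with 1 at an unadjusted p under 0.05. Id3 and Id2 had log2 fold changes of 0.59 and -0.56 there.

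Of 15 tested regulators upstream of the MRFs, 5 fell and 1 was called higher in α7Sca1 cells against SCs DT, beside 15.6% and 14.6% of all genes. Eya1, a transcriptional coactivator with phosphatase activity, was at 0.324 and 0.370 RPKM in α7Sca1 cells against 2.24 and 2.77 RPKM in SCs DT (log2 fold change -1.37 ± 0.17, adjusted p = 0.00121, limma). Six4 was at 0.465 and 0.353 RPKM in α7Sca1 cells against 2.01 and 2.35 RPKM in SCs DT (log2 fold change -1.17 ± 0.18, adjusted p = 0.00359, limma). Named after their values were seen, Eya4 and Pitx3 also fell. The 1 higher call was Pitx1, which passed the filter of 0.25 RPKM only through α7Sca1 replicate 2 (0.322 RPKM), so that its call carries no weight, and it was lost without SCs CTRL replicate 2, SCs DT replicate 1 or 2, or α7Sca1 replicate 2, where 0 of the list rose. Over the 15, limma called 0 in SCs DT against SCs CTRL, with 2 at an unadjusted p under 0.05, and Meox2, a homeobox gene of the limb muscle lineage, had a log2 fold change of -0.18.

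Among 6 relatives of the MADS-box family and their coactivators, 3 fell and none rose in α7Sca1 cells against SCs DT, beside 15.6% and 14.6% of all genes. Myocd, a coactivator of SRF best known from smooth muscle and heart, was at 0.388 and 0.268 RPKM in α7Sca1 cells against 5.10 and 4.31 RPKM in SCs DT (log2 fold change -2.10 ± 0.17, adjusted p = 0.000265, limma). Mamstr (MASTR), a coactivator of MEF2, was at 1.19 and 0.550 RPKM in α7Sca1 cells against 6.03 and 5.63 RPKM in SCs DT (log2 fold change -1.89 ± 0.21, adjusted p = 0.000959, limma). Mkl1, an actin-regulated coactivator of SRF, was at 2.92 and 3.06 RPKM in α7Sca1 cells against 5.59 and 5.59 RPKM in SCs DT (log2 fold change -0.72 ± 0.18, adjusted p = 0.0199, limma). The 5 pericyte and smooth muscle markers summed to 196 and 73.0 RPKM in α7Sca1 cells and 1104 and 793 RPKM in SCs DT, and their part in the Myocd difference was not tested. Between SCs DT and SCs CTRL limma called 0 of the 6, with 2 at an unadjusted p under 0.05, and Mamstr was at 6.03 and 5.63 RPKM in SCs DT and 6.43 and 6.37 RPKM in SCs CTRL. Mkl1 was at 5.59 and 5.59 RPKM in SCs DT and 3.45 and 3.999 RPKM in SCs CTRL (adjusted p = 0.394).

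Of 12 regulators of MEF2 activity, 3 fell and none rose in α7Sca1 cells against SCs DT, beside 15.6% and 14.6% of all genes. Sik1, a kinase that phosphorylates class IIa histone deacetylases, was at 5.69 and 4.42 RPKM in α7Sca1 cells against 31.1 and 17.0 RPKM in SCs DT (log2 fold change -1.997 ± 0.30, adjusted p = 0.00301, limma). Mapk7 (ERK5), which phosphorylates MEF2 proteins, was at 1.41 and 0.840 RPKM in α7Sca1 cells against 2.43 and 2.45 RPKM in SCs DT (log2 fold change -0.71 ± 0.20, adjusted p = 0.0322, limma). Hdac5, a class IIa deacetylase that binds and represses MEF2, was at 12.2 and 14.0 RPKM in α7Sca1 cells against 22.7 and 20.6 RPKM in SCs DT (log2 fold change -0.68 ± 0.20, adjusted p = 0.0394, limma). Only 1 of them passed without SCs CTRL replicate 1, SCs CTRL replicate 2 or SCs DT replicate 1. For these regulators, limma called 0 of the 12 in SCs DT against SCs CTRL, with 2 at an unadjusted p under 0.05. Hdac5 was at 22.7 and 20.6 RPKM in SCs DT and 13.2 and 11.8 RPKM in SCs CTRL (adjusted p = 0.234), and Sik1 at 31.1 and 17.0 RPKM in SCs DT and 14.3 and 15.5 RPKM in SCs CTRL (adjusted p = 0.568).

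Of 15 chromatin cofactors of the MRFs and MEF2 proteins, 3 fell and none rose in α7Sca1 cells against SCs DT, beside 15.6% and 14.6% of all genes. Kdm1a (LSD1), a histone demethylase, was at 1.44 and 0.953 RPKM in α7Sca1 cells against 2.64 and 3.41 RPKM in SCs DT (log2 fold change -0.87 ± 0.22, adjusted p = 0.0223, limma). Smarcd3 (BAF60C), a subunit that brings the SWI/SNF complex to Myod1 targets, was at 0.449 and 0.360 RPKM in α7Sca1 cells against 2.19 and 1.06 RPKM in SCs DT (log2 fold change -0.87 ± 0.21, adjusted p = 0.0215, limma). Smarca4 (BRG1), the ATPase of that complex, was at 3.49 and 3.33 RPKM in α7Sca1 cells against 6.38 and 6.25 RPKM in SCs DT (log2 fold change -0.73 ± 0.19, adjusted p = 0.0262, limma). None of the 3 passed without SCs DT replicate 1 or without α7Sca1 replicate 2, and 1 passed without SCs DT replicate 2. Without α7Sca1 replicate 1, 1 cofactor was called higher. Among the 15, limma called 0 in SCs DT against SCs CTRL and 0 at an unadjusted p under 0.05, with Hdac1 at 16.8 and 16.4 RPKM in SCs DT and 20.8 and 23.3 RPKM in SCs CTRL, and Prmt5 at 10.9 and 12.2 RPKM in SCs DT and 10.5 and 15.3 RPKM in SCs CTRL.

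Against SCs DT, the median log2 fold change in α7Sca1 cells was -0.98 over the E proteins, -0.39 over the bHLH inhibitors, -0.18 over the upstream regulators, -0.42 over the MADS-box relatives, -0.20 over the MEF2 regulators and -0.22 over the chromatin cofactors, beside -0.04 over all genes tested. For SCs DT against SCs CTRL these 6 medians lay between -0.15 and 0.14, beside -0.01 over all genes tested.

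The target genes had the lowest median of the 7 lists in α7Sca1 cells. Their list held 34 genes that the MRFs and MEF2 proteins are known to control in muscle, chosen with earlier results of these data known. In α7Sca1 cells against SCs DT 33 of them fell and none rose, beside 15.6% and 14.6% of all genes tested. The median log2 fold change of the 34 was -3.11. The exception, Rb1, was at 0.642 and 1.09 RPKM in α7Sca1 cells and 1.85 and 1.82 RPKM in SCs DT (adjusted p = 0.052). Mylpf, a fast myosin light chain, was at 6.15 and 6.62 RPKM in α7Sca1 cells against 308 and 386 RPKM in SCs DT (log2 fold change -5.55 ± 0.40, adjusted p = 0.00021, limma). Acta1, the skeletal α-actin, was at 22.9 and 16.0 RPKM in α7Sca1 cells against 631 and 1131 RPKM in SCs DT (log2 fold change -5.39 ± 0.41, adjusted p = 0.000234, limma). Ckm, the muscle creatine kinase, was at 1.27 and 2.23 RPKM in α7Sca1 cells against 64.6 and 81.4 RPKM in SCs DT (log2 fold change -4.76 ± 0.31, adjusted p = 0.000173, limma). Against SCs CTRL, 31 of the 34 were called lower in α7Sca1 cells and none higher, beside 17.3% and 15.1% of all genes tested. The list shares 4 genes with the myofibre markers and 2 with the satellite cell markers. Of the 30 outside the myofibre list, 29 fell against SCs DT.

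In SCs DT against SCs CTRL, 4 of the 34 target genes rose and none fell, beside 0.352% and 0.0933% of all genes tested. A positive log2 fold change was seen in 30 (median 1.11, beside -0.01 over all genes tested). None of the factors passed, but Myf6 had a log2 fold change of 1.62 (adjusted p = 0.0826, limma). By ranges alone, 4 factors lay above and 2 below without overlap, beside 21.6% and 25.1% of all genes tested. Ckm was at 64.6 and 81.4 RPKM in SCs DT against 5.05 and 9.14 RPKM in SCs CTRL (log2 fold change 3.23 ± 0.31, adjusted p = 0.0089, limma). Myl1, a light chain of fast and embryonic fibres, was at 191 and 216 RPKM in SCs DT against 22.9 and 48.1 RPKM in SCs CTRL (log2 fold change 2.58 ± 0.34, adjusted p = 0.0366, limma). Mybph, a myosin-binding protein, was at 24.0 and 29.4 RPKM in SCs DT against 4.50 and 8.09 RPKM in SCs CTRL (log2 fold change 1.96 ± 0.27, adjusted p = 0.0409, limma). Cav3, the muscle caveolin and named after its values were seen, was at 15.4 and 17.4 RPKM in SCs DT against 3.96 and 5.49 RPKM in SCs CTRL (log2 fold change 1.61 ± 0.21, adjusted p = 0.0299, limma). For each of these 4 target genes, SCs CTRL replicate 1 was the lowest SC library.

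The count of target genes called higher in SCs DT depended on the libraries. It was 0 without SCs CTRL replicate 1 and without either SCs DT replicate, 6 without SCs CTRL replicate 2, and 1 without either α7Sca1 replicate. With all libraries kept it was also 0 with no filter and where only the 2 groups compared were fitted, and 2 without the mean-variance trend. Outside the myofibre list, 3 of the 30 target genes rose and 26 had a positive log2 fold change, with a median of 0.79. That count of 3 was 0 without SCs CTRL replicate 1, either SCs DT replicate or either α7Sca1 replicate. The myofibre sum given beside Myf6 was higher in SCs DT too, and its part in these differences was not tested.

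**Figure D4:**
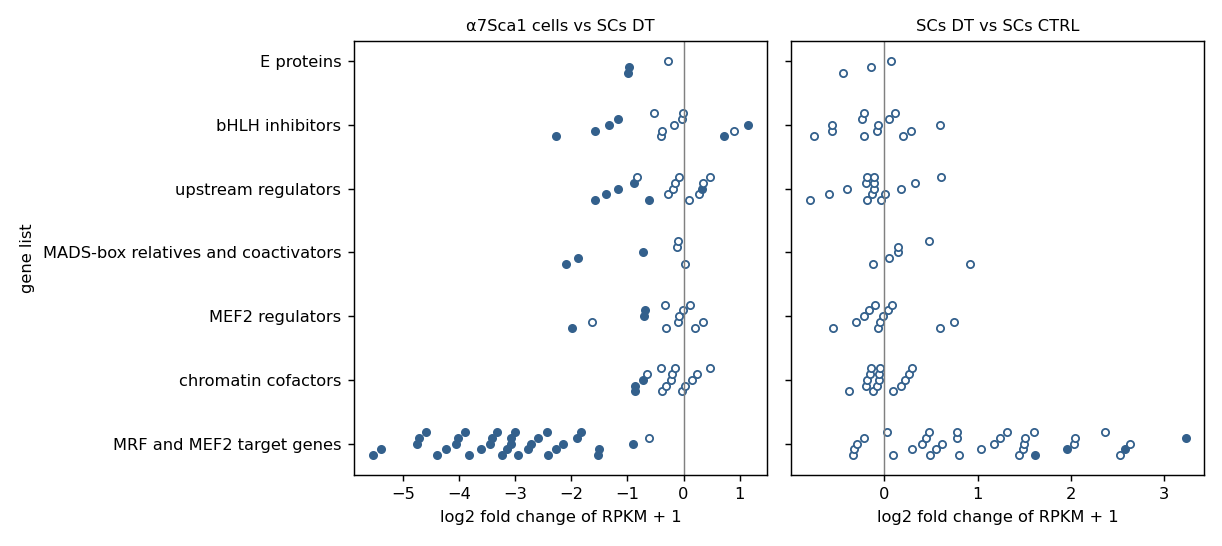
Log2 fold change of RPKM + 1 of each tested gene of 7 lists (points, spread vertically for clarity; filled where the adjusted p was under 0.05), in α7Sca1 cells against SCs DT (left) and SCs DT against SCs CTRL (right). The target genes lie on the lower side at left, with 33 of 34 called, and mostly on the higher side at right, with 4 called, and no gene of the other 6 lists is called at right.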

How the data were processed

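RNA-Seq of 6 libraries (3 groups of 2 by the sample labels, each a pool of 2 mice) was analysed. The authors prepared unstranded SMART-seq2 libraries, aligned reads to mm9 (the submitters' notes name TopHat2 2.0.8) and deposited RPKM values. The depth of the libraries is unknown. A further table of the authors, with their own DESeq2 fold changes and p-values and 10 columns of values per sample, was not used.

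Genes whose highest RPKM exceeded 0.25 (13934 of 21671) were log2 transformed after adding 1 RPKM and fitted with limma 3.58.1 in R 4.3.3, the 3 groups sharing 1 variance estimate with a mean-variance trend. Benjamini-Hochberg adjustment covered all genes tested, with a threshold of 0.05, and the procedure was tested on simulated data. With 2 libraries a group, p-values measure only the spread between these pools. The factors and gene lists were chosen with earlier results of these data known. For each list and comparison, up to 3 genes were named by size of change among those past the test, without overlap and with a group mean of at least 1 RPKM, or the 2 genes of highest RPKM where none passed, and for each factor the 3 most alike genes. Of the upstream regulators, 2 genes that this rule picked are not reported here. All 160 listed genes were found, 1 by an older symbol. The alternatives were other pseudocounts and filters, rescaling by median ratios, fits of only the groups compared, a replicate block, no trend, and each library left out. Coordinates follow GENCODE on NCBIM37. Python 3.11.15 and matplotlib 3.10.9 were also used.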

Additional observations from a re-analysis of the deposited data

How the results depend on the processing

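Pax7, Myf5, Myod1 and Myog were called lower in α7Sca1 cells against both SC groups, and Myf6 and Mef2c against SCs DT, under all 14 alternatives. Beside the losses given with its values, Mef2a against SCs CTRL was lost with no filter (adjusted p = 0.0792), after rescaling (0.0521) and with only the 2 groups compared (0.0795, limma). No factor was called in SCs DT against SCs CTRL, with a range of 0 to 1 when 1 library was left out, the 1 being Myf6 without SCs DT replicate 1. Over all genes, the 62 calls of that comparison became 4 with no filter, 1 with only the 2 groups compared, 35 without trend, and 0 to 55 when 1 library was left out, with 0 without SCs CTRL replicate 1 or SCs DT replicate 2. In α7Sca1 cells, 1791 to 4462 genes were called against SCs DT and 1939 to 4749 against SCs CTRL when 1 library was left out. Directions that were not called also turned with the library left out: the log2 fold change in SCs DT against SCs CTRL ranged between -0.48 and 0.32 for Myf5 and between -0.24 and 0.41 for Mef2d, and that of Myf6 in α7Sca1 cells against SCs CTRL between -0.22 and 0.11. Where 1 library was left of a group, it was taken to vary like the other groups. The cause was not tested.

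Same-numbered libraries did not deviate together in every pair of groups (r = -0.131 between SCs CTRL and SCs DT, 0.162 between SCs CTRL and α7Sca1 cells, 0.255 between SCs DT and α7Sca1 cells), so the numbers were not taken as pairs. With a replicate block, 92 genes were called in SCs DT against SCs CTRL, 1 factor among them (Myf6, adjusted p = 0.0319, limma), and 9 target genes, and the calls of the factors in α7Sca1 cells stayed at 7 against SCs DT and 6 against SCs CTRL. Without read counts, the precision of low values such as those of Pax3 and Myf6 cannot be given.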
